A study of Mus musculus with 49 samples.

Results

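Nuclear RNA and whole cell RNA of cells labelled D1 medium spiny neurons (D1-MSNs), from the mouse nucleus accumbens, were compared across 15 of the 49 count columns of the series: all 6 nuclear-FACS D1 libraries and all 9 whole cell-FACS D1 libraries. The libraries were chosen by the cell type and method in their column names, and in the nuclear libraries D1-MSN markers were lower, and markers of D2-MSNs, glia and glutamatergic neurons higher, than in the whole cell libraries, so that D1 is used here as the name of the label. All came from males on a C57BL/6J background. For the nuclear libraries, mice heterozygously carried Drd1-cre and Thy1-loxPSTOPloxP-EGFP-F, so that Drd1-cre switched on a nuclear GFP, and nuclei were dounced from frozen tissue, spun through sucrose, stained with the DNA dye DAPI and sorted. For the whole cell libraries, mice heterozygously carried a cytoplasmic fluorophore under the Drd1 promoter, and cells were freed from fresh tissue with papain, stained with DAPI and sorted. Age was not given in the sources used here. Because the reporter, the tissue storage, the dissociation and, by the lane names in the study's sample list, the sequencing lanes all changed together with the RNA fraction, their effects cannot be told apart from that of the fraction. The study's text gives each library its own mouse, yet its sample list names the ninth whole cell library a repeat of the first, and the title of the ninth names D2-MSNs. Its column name puts it with D1, and its Drd1 level lies among those of the other whole cell libraries. Its Spearman correlation with the first across genes was 0.981, but whole cell libraries 2 and 8 (0.981) and 3 and 4 (0.983) were as alike. The correlation therefore does not tell whether it is a repeat. Its counts differed from those of the first beyond sampling noise. The ninth therefore counts here as 1 library, and the numbers of genes called are given with and without it. If it came from the mouse of the first, the p-values rest on 1 mouse fewer.

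MSNs are the GABA-releasing projection neurons that make up most of the nucleus accumbens. Those with the D1 dopamine receptor also make dynorphin and substance P, and those with the D2 receptor make enkephalin. A nucleus holds unspliced transcripts with their introns, retained long non-coding RNAs and the machinery RNAs of splicing and ribosome assembly, while finished messenger RNAs and mitochondrial transcripts lie mostly in the cytoplasm. A whole cell sample holds both. Libraries of both groups were depleted of ribosomal RNA, and fragments were counted over introns as well as exons, so that a gene's count here is not a count of messenger RNA alone.

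Total counts ranged from 3837701 to 68777008 in nuclear libraries (median 6964784.5) and from 7876138 to 18807007 in whole cell libraries (median 12573750). The 10 genes with the most counts held between 20.3 and 66.9% of a nuclear library but between 2.70 and 9.09% of a whole cell library. A uniform background, estimated from the counts per kilobase on olfactory and vomeronasal receptor genes that overlap no other gene, stood for 0.528 to 21.9% of nuclear and 13.2 to 52.2% of whole cell counts. On the scale of the levels given below, CPM (counts scaled to 1000000 per library, over the genes tested), 3 counts were worth between 0.147 and 2.99 CPM in nuclear and between 0.218 and 0.567 CPM in whole cell libraries. Levels under these floors rest on at most 2 counts, and the floors cover counting error only.

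The classes of RNA that filled the libraries differed. Protein-coding genes took 55.1% ± 16.8 (SD, n = 6) of nuclear counts against 85.5% ± 2.15 (SD, n = 9) of whole cell counts (two-sided exact permutation test over all assignments of the 15 libraries, p = 0.00020, adjusted p = 0.00052 over 21 classes). The highest nuclear library, at 73.2%, stayed below the lowest whole cell library, at 82.4%. In their place stood a locus on chromosome 17 whose annotated genes, CT010467.1, Gm42418 and AY036118, overlap each other and hold ribosomal RNA sequence. It drew 55.9, 26.5, 16.4, 16.9, 49.1 and 52.8% of counts in nuclear libraries 1 to 6 and between 0.282 and 5.60% in whole cell libraries (exact permutation test, adjusted p = 0.00052). A fragment in this locus counted once for each gene it overlapped. Nuclear libraries 1, 5 and 6 thus stood apart from the other nuclear libraries, and values that move with them are given below.

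Outside this locus, long intergenic non-coding RNA took less of the nuclear counts, at 3.26% ± 1.16 (SD, n = 6) against 5.29% ± 0.945 (SD, n = 9, exact permutation test, adjusted p = 0.0046). With the 10 highest genes of each library left out of both the class and the total, the difference turned to 0.296 percentage points. It then did not pass (adjusted p = 0.77 by the same exact test). Genes antisense to others took 1.5% ± 0.633 (n = 6) against 2.83% ± 0.244 (n = 9), and pseudogenes 0.347% ± 0.252 (n = 6) against 1.12% ± 0.199 (n = 9), both with an adjusted exact permutation p of 0.00052. Both are shares of all counts, those of the ribosomal RNA locus included. By the test of single genes given below, 213 of 995 antisense genes (21.4%) were higher in nuclear and 86 (8.64%) in whole cell RNA. Over all genes tested these were 18.5 and 21.5%. Genes of microRNAs took more of the nuclear counts, at 0.742% ± 0.476 (n = 6) against 0.0781% ± 0.0469 (n = 9, exact permutation test, adjusted p = 0.00052), with Mir6236, described below with the genes that moved with this locus, among them. Spliceosomal small nuclear RNAs (snRNAs) took 0.0514% ± 0.0357 (n = 6) against 0.0203% ± 0.00703 (n = 9, exact permutation test, adjusted p = 0.0080). Small nucleolar and Cajal body RNAs took 0.0733% ± 0.0344 (n = 6) against 0.0459% ± 0.0174 (n = 9), a difference that did not pass the test (exact permutation test, adjusted p = 0.078). It passed with the 10 highest genes out of both the class and the total (0.0935 percentage points, exact permutation test, adjusted p = 0.0028) and without nuclear replicate 1 (0.0340) or 6 (0.0344) or whole cell replicate 5 (0.0325).

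Genes of the machinery that turns messages and fuel into protein and ATP took more of the whole cell counts. The nuclear-encoded subunits of the respiratory chain held 0.0943% ± 0.0109 (n = 6) of nuclear and 0.314% ± 0.108 (n = 9) of whole cell counts (exact permutation test, adjusted p = 0.0019), with the highest nuclear library at 0.106% and the lowest whole cell library at 0.152%. Cytosolic ribosomal protein genes held 0.0739% ± 0.0277 (n = 6) and 0.154% ± 0.0666 (n = 9, exact permutation test, adjusted p = 0.022). When the 10 highest genes of each library were left out of both the class and the total, the ribosomal protein share no longer differed. The protein-coding difference shrank to -1.88 percentage points. Both shares thus depended on the highest genes. For the protein-coding share, the space these genes took and the loss of those that code for protein cannot be told apart. Mitochondrial mRNAs did not differ in their share, at 0.148% ± 0.127 (n = 6) against 0.180% ± 0.181 (n = 9, exact permutation test, adjusted p = 0.87), while mitochondrial rRNA held 0.707% ± 0.598 (n = 6) against 0.181% ± 0.209 (n = 9, adjusted p = 0.022), a call lost without nuclear replicate 5.

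**Figure D1:**
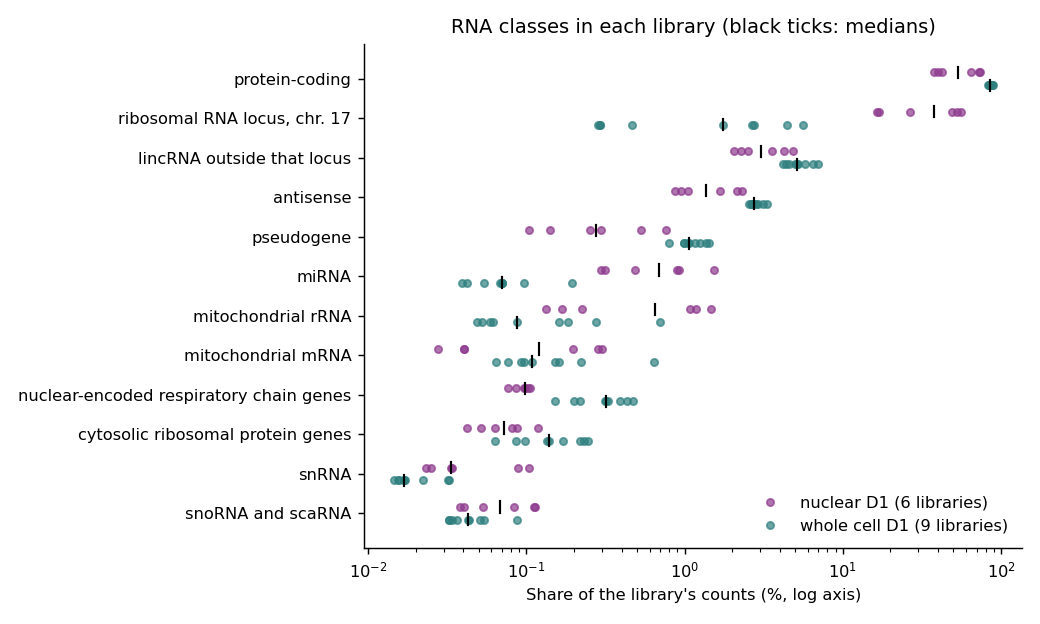
Share of each library's counts, in percent on a log axis, that fell on each class of RNA in the 6 nuclear and 9 whole cell D1 libraries (points, 1 per library; black ticks, medians). The groups do not overlap for protein-coding genes, the chromosome 17 ribosomal RNA locus, antisense genes, pseudogenes, microRNA genes or respiratory chain genes, and overlap for mitochondrial mRNA, ribosomal protein genes and small nucleolar RNAs.

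Gene by gene, 12013 genes passed the filters on level, and levels below are given as CPM of these genes after TMM scaling, which sets libraries equal over the bulk of genes. By edgeR's quasi-likelihood test with Benjamini-Hochberg adjustment, at an adjusted p of at most 0.05 and a log2 fold change beyond 0.38, 2219 genes (18.5%) were higher in nuclear RNA and 2581 (21.5%) in whole cell RNA. These shares over all genes tested are the measure for the calls of each list below. Positive log2 fold changes stand for a higher level in nuclear RNA throughout, each with its standard error (SE), and all adjusted p-values for genes are from this test. Without the ninth whole cell library the counts were 2105 and 2396. The groups of libraries did not overlap, with every nuclear library above every whole cell library, for 678 genes (5.64%) and, in the other direction, for 808 genes (6.73%). The median log2 fold change over all genes tested was -0.06. This split of 46.2% nuclear calls rests on TMM scaling. Scaled by library totals alone, in which the ribosomal RNA locus counts, the median moved by -0.89, 446 genes were higher in nuclear and 6269 in whole cell RNA, and 6.64% of calls were nuclear. The changes below are therefore relative to the bulk of the genes, and calls that this scaling ended are named with their genes. Without the filter on FPKM, a level per length of gene, 31734 genes were tested, with 2426 and 1482 calls (62.1% nuclear), and with FPKM set on summed exons 29010 genes, with 2539 and 1479 calls (63.2% nuclear).

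The length of a gene on the genome went with its direction. Of 199 protein-coding genes tested that span 300 kb or more, 146 (73.4%) were higher in nuclear RNA and none (0) in whole cell RNA, with a median log2 fold change of 0.67. Between 100 and 300 kb, 197 of 525 were higher in nuclear and 25 in whole cell RNA (median 0.29). The balance turned between 30 and 100 kb, where 289 of 1507 were higher in nuclear and 386 in whole cell RNA (median -0.03). Shorter genes were more often higher in whole cell RNA: 767 against 292 of 2147 at 10 to 30 kb (median -0.24), 583 against 164 of 1847 at 3 to 10 kb (median -0.42) and 184 against 35 of 771 below 3 kb (median -0.62). The 387 genes without an intron had a median of -0.70, with 110 higher in whole cell and 24 in nuclear RNA, and the 6609 genes with an intron a median of -0.15. Across the 6996 protein-coding genes tested, Spearman's rho between gene span and log2 fold change was 0.335, a description of genes that share libraries and are not independent.

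Library by library, genes over 100 kb held 53.1, 64.0, 60.1, 62.4, 53.1 and 50.9% of the protein-coding counts in nuclear libraries 1 to 6 and between 44.9 and 53.6%, with a median of 48.9%, in whole cell libraries. The means were 57.3% ± 5.55 (SD, n = 6) and 49.8% ± 3.15 (SD, n = 9, two-sided exact permutation test, p = 0.0058), and the groups overlapped. A uniform background also falls in proportion to gene length and was larger in whole cell libraries. Once it was subtracted, the shares were 57.0% ± 6.07 (n = 6) and 45.7% ± 3.13 (n = 9, exact permutation test, p = 0.00040), the median of the longest genes rose to 0.97, and rho was 0.331 over 6753 genes. Genes without an intron held 0.202% ± 0.0572 (n = 6) of nuclear and 0.383% ± 0.0850 (n = 9) of whole cell protein-coding counts (exact permutation test, p = 0.0012).

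**Figure D2:**
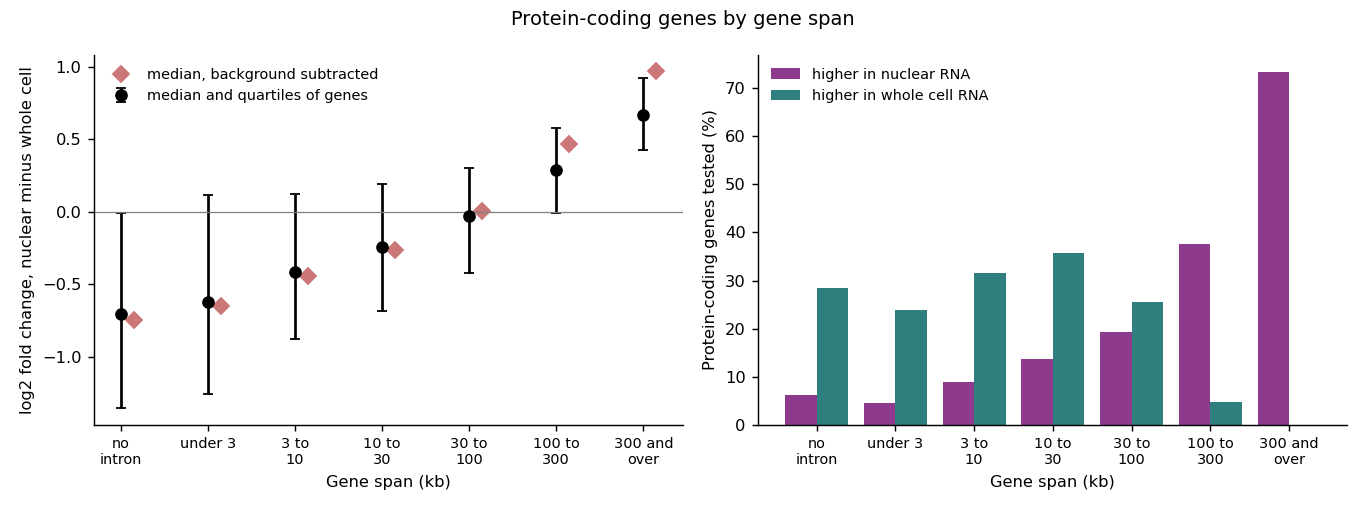
Protein-coding genes tested, by gene span in kb. On the left, the median log2 fold change, nuclear minus whole cell, with the quartiles of the genes in each bin (black) and the median after background subtraction (diamonds), and on the right, the percent of tested genes called higher in nuclear or in whole cell RNA. The median climbs from -0.62 below 3 kb to 0.67 at 300 kb and over.

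A list of long neuronal genes shows the same in named genes. Of its 34 members 27 were tested, 23 of them higher in nuclear RNA and none (0) in whole cell RNA, with a median of 0.85. Csmd1, a transmembrane protein with complement-control repeats, spans chr8:15892537-17535586 (GRCm38, as are all coordinates here) and lay between 3397 and 7364 CPM in nuclear and between 1540 and 3134 CPM in whole cell libraries. The nuclear libraries all stood above the whole cell libraries, and the log2 fold change was 1.26 ± 0.18 (SE, adjusted p = 4.7e-05). Nrg1, the growth factor neuregulin 1, measured 4764, 6664, 3911, 4732, 3945 and 3113 CPM in nuclear libraries 1 to 6 and 1042 to 3021 CPM in whole cell libraries, with log2 1.37 ± 0.21. The adhesion genes Ntm (1.40 ± 0.21) and Pcdh9 (1.27 ± 0.17), and Kcnip4, a potassium channel partner (1.17 ± 0.19), were also higher in nuclear RNA and without overlap. Scaled by library totals, none of these 5 genes was called. Not every long gene differed. Cntnap2 and Csmd3, both longer than 1 megabase, had log2 fold changes of 0.22 ± 0.17 and 0.20 ± 0.15 that did not pass the test (adjusted p = 0.31 for each).

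Long non-coding RNAs held in the nucleus were higher in nuclear RNA where they differed. Of 21 listed, 15 were tested, 10 were higher in nuclear and none (0) in whole cell RNA, and the median was 1.17. Miat, a non-coding RNA of nuclear domains in neurons, lay between 52.2 and 241 CPM in nuclear and between 15.4 and 47.2 CPM in whole cell libraries, without overlap (log2 2.24 ± 0.29, adjusted p = 1.5e-05). Snhg14, the long transcript that hosts the brain snoRNAs and runs antisense to Ube3a, rose by log2 1.5 ± 0.16, and Kcnq1ot1, which silences an imprinted cluster in cis, by 1.31 ± 0.19, each without overlap. Snhg1, a host gene of snoRNAs, was 11.4-fold higher (log2 3.51 ± 0.37), with 284 CPM in nuclear library 5 and 32.9 to 114 CPM in the other nuclear libraries, against 4.70 to 19.0 CPM in whole cell libraries. Snhg1 overlaps 8 other annotated genes and Snhg14 213. Fragments were counted for every overlapping gene, so the counts of these hosts and of the genes within them cannot be told apart. For Meg3, an imprinted brain transcript, the fold was 2.47 (log2 1.30 ± 0.32), and for Neat1, the scaffold of paraspeckles, 3.30 (log2 1.72 ± 0.38). The calls of Snhg14, Kcnq1ot1 and Meg3 were lost on scaling by library totals.

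Malat1, the abundant RNA of nuclear speckles (chr19:5795690-5802672), measured 20235, 26465, 18177, 20829, 14426 and 12016 CPM in nuclear libraries 1 to 6 and lay between 3718 and 13408 CPM, with a median of 8181, in whole cell libraries. The lowest nuclear library fell among the whole cell libraries. Its log2 fold change of 1.10 ± 0.27 (adjusted p = 0.0040) became 0.69 (adjusted p = 0.065) over the 9 libraries of lowest background and also missed the threshold without the FPKM filter (adjusted p = 0.072). Its call was also lost on scaling by library totals.

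Small RNAs of the spliceosome and nucleolus were among the gene groups with the largest median differences. Of 1385 snRNA genes annotated, 72 were tested, of which 42 were higher in nuclear and 9 in whole cell RNA (median 2.44). Of 1558 genes of small nucleolar and Cajal body RNAs, 197 were tested, with 129 higher in nuclear and 6 in whole cell RNA (median 2.39). Only 4 of these 72 and 3 of these 197 had no count in a whole group. Setting so few extreme members to a bound could not move the medians and is no check on them. The medians cover only genes that passed the filter on level, 5.20 and 12.6% of those annotated. A gene high in 1 group alone could pass it. Because fragments were counted for every overlapping gene and 181 of these 197, and 125 of the 129, overlap another gene, mostly the intron-containing host they are cut from, their counts and those of host transcripts cannot be told apart. Snord21, a C/D box snoRNA that guides methylation of ribosomal RNA, was 30.6-fold higher (log2 4.94 ± 0.44, and 4.32 without nuclear replicate 5, where it reached 186 CPM).

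Genes of U1, the snRNA that pairs with the start of introns, went in both directions, although their sequences are nearly alike. The sequences of 3 of them (GENCODE vM21 transcripts on GRCm38, all on the plus strand) are shown because the direction differs between these copies. Gm23804 is identical to Rnu1a1 over 164 bases. Gm26232, with 166 bases, matches it at 158 of them, and capitals mark the bases that differ from Rnu1a1 or are inserted.
Rnu1a1, chr11:87422867-87423030: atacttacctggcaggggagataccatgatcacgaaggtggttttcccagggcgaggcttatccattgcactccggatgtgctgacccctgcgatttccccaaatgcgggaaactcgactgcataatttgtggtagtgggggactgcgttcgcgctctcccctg
Gm23804, chr12:54714218-54714381: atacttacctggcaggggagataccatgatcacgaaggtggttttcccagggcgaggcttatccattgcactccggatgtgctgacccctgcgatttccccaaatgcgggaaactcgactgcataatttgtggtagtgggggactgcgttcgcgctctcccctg
Gm26232, chr3:96450446-96450611: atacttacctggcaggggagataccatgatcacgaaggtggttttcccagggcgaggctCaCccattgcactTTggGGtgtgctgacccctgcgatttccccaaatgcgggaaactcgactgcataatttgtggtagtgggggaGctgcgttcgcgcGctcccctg

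Gm23804 measured 47.9, 103, 11.3, 30.2, 213 and 95.5 CPM in nuclear libraries 1 to 6 and drew only 2 counts in all whole cell libraries together, a ratio of pooled levels of 1504 with a 95% counting interval from 416 to 12428. Rnu1a1 lay between 1.77 and 43.9 CPM in nuclear libraries and at or below 0.324 CPM in all whole cell libraries but the fifth, at 5.63 CPM (log2 4.59 ± 0.95, and 6.97 without whole cell replicate 5). Gm26232 had no count (0) in any nuclear library against 15.9, 16.9, 38.3, 45.2, 74.0, 24.5, 12.9, 7.14 and 0.378 CPM in whole cell libraries 1 to 9, and was at least 415-fold lower in nuclear RNA by pooled levels, with 3 counts over the group as the floor. Fragments that align to several places were left out of these counts, so a fragment counts for such a copy only where it reaches a base that tells the copies apart or leaves the copy. How much of each value belongs to which copy is uncertain.

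The other spliceosomal RNAs with names of their own were higher in nuclear RNA. Rnu2-10, a U2 gene, was 114.5-fold higher (log2 6.84 ± 0.77, and 7.57 without whole cell replicate 3), with 2.43 to 36.9 CPM against at most 0.440 CPM. Of a list of 15 abundant small RNAs, 11 were tested, with 3 higher in nuclear and 1 in whole cell RNA. Rnu11 and Rnu12, the U11 and U12 RNAs of the minor spliceosome, were 9.44-fold (log2 3.24 ± 0.53) and 4.12-fold (log2 2.04 ± 0.60) higher. Rn7sk, the RNA that restrains the elongation factor P-TEFb, had a log2 fold change of 1.21 ± 0.65 that did not pass (adjusted p = 0.15), with 1518 CPM in whole cell library 9 and 50.4 to 699 CPM in the other whole cell libraries. Without that library it was 1.96 (adjusted p = 0.0086). The call of Rnu12 was lost on scaling by library totals. The 5S ribosomal RNA gene n-R5s115, a near-identical member of a multigene family and thus uncertain, was higher in nuclear RNA by a pooled ratio of 516 (95% counting interval from 91.9 to 20454). It reached 83.8 CPM in nuclear library 5, and its 1 whole cell count lay in library 7.

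Genes for the splicing apparatus itself divided. All 29 listed genes of nuclear speckles and detained introns were tested, 12 were higher in nuclear and 5 in whole cell RNA, and the median was 0.14. Srrm2, the large protein at the core of speckles, measured 1069, 1110, 786, 879, 834 and 761 CPM in nuclear libraries against 199 to 425 CPM in whole cell libraries, without overlap (log2 1.66 ± 0.17, adjusted p = 1.8e-06). Snrnp70, the U1 70K protein, rose by 1.17 ± 0.24 and Rsrp1 by 1.04 ± 0.21. Srsf3, a splicing factor, and Mgea5, the enzyme that removes O-GlcNAc, were higher in whole cell RNA (log2 -0.96 ± 0.25 and -0.88 ± 0.20), calls that were lost without the FPKM filter. The calls of Snrnp70 and Rsrp1 were lost on scaling by library totals.

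Of 24 chromatin regulators listed, 20 were tested, 11 were higher in nuclear RNA, none (0) was higher in whole cell RNA and 9 were not called, with a median of 0.54. Kmt2d, which methylates histone H3 at enhancers, measured 356, 242, 206, 218, 276 and 291 CPM in nuclear libraries and 49.6 to 106 CPM in whole cell libraries (log2 1.82 ± 0.18, adjusted p = 1.3e-06). Arid1a, a subunit of the BAF remodeller, differed by 0.97 ± 0.15 and Dnmt3a, a DNA methyltransferase, by 0.82 ± 0.15. For these 3 genes the groups did not overlap. Scaled by library totals, Arid1a and Dnmt3a were not called, and Dnmt3a stood at -0.02.

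The markers of D1-MSNs were all lower in the libraries labelled nuclear D1. Of 7 markers 5 were tested and all 5 were higher in whole cell RNA, with a median of -2.25, while Ebf1 and Eya1 did not pass the filter. Drd1, the D1 receptor itself (ENSMUSG00000021478, chr13:54051183-54055705), measured 77.7, 59.0, 30.7, 21.2, 54.9 and 59.9 CPM in nuclear libraries 1 to 6 and 405, 217, 507, 465, 364, 447, 320, 158 and 444 CPM in whole cell libraries 1 to 9. The groups did not overlap and whole cell RNA was 7.33-fold higher (log2 -2.87 ± 0.31, adjusted p = 2.6e-06). Tac1, the precursor of substance P, was 6.67-fold higher in whole cell RNA (log2 -2.74 ± 0.33), with 17.7 to 37.9 CPM against 64.1 to 292 CPM, and Pdyn, the precursor of dynorphin, 4.75-fold higher (log2 -2.25 ± 0.31), with 20.5 to 73.3 CPM against 76.1 to 234 CPM. Isl1, a transcription factor of D1-MSNs, was 3.91-fold higher (log2 -1.97 ± 0.24). Chrm4, the M4 muscarinic receptor, differed by -1.17 ± 0.26, a call lost without the FPKM filter. In such bulk libraries, fewer D1-MSN nuclei in the sort and less of these RNAs in each nucleus cannot be told apart.

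The markers of D2-MSNs stood the other way round. Of 5 tested, 3 were higher in nuclear RNA and none (0) in whole cell RNA (median 1.30). Drd2, the D2 receptor (ENSMUSG00000032259, chr9:49340627-49408177), measured 277, 416, 194, 237, 244 and 223 CPM in nuclear libraries 1 to 6 and 32.1, 92.2, 32.4, 22.6, 61.3, 16.7, 66.5, 124 and 30.4 CPM in whole cell libraries 1 to 9. Every nuclear library was above every whole cell library, with a fold of 5.00 (log2 2.32 ± 0.36, adjusted p = 9.8e-05). The highest whole cell values were in libraries 2, 7 and 8, those of largest background, and the log2 fold change was 2.96 after background subtraction and 3.42 over the 9 libraries of lowest background. Adora2a, an adenosine receptor of D2-MSNs, was 2.77-fold higher in nuclear RNA (log2 1.47 ± 0.31, and 2.27 over the libraries of lowest background), a call lost on scaling by library totals.

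Penk, the enkephalin precursor, measured 922, 722, 187, 267, 1008 and 747 CPM in nuclear libraries 1 to 6 and 111 to 404 CPM in whole cell libraries, so that nuclear libraries 3 and 4 fell among the whole cell ones (log2 1.30 ± 0.34, adjusted p = 0.0060). Its call was lost without nuclear libraries 1, 5 and 6 (0.61, adjusted p = 0.26) and without the FPKM filter (adjusted p = 0.054), and also on scaling by library totals. Gpr6 and Sp9, further D2-MSN genes, had log2 fold changes of 0.39 ± 0.38 and 0.48 ± 0.27 that did not pass.

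Summed over their lists, D1-MSN markers lay between 283 and 513 CPM in nuclear and between 1072 and 1284 CPM in whole cell libraries, and D2-MSN markers between 442 and 1335 CPM in nuclear and between 247 and 485 CPM in whole cell libraries. No listed marker was at 0 in all libraries of either group. Levels were also divided by gene span, 4.52 kb for Drd1 and 67.6 kb for Drd2. Span takes in introns and exons alike, so this does not put genes of unlike span on the same scale. Nuclear libraries held Drd1 at a median of 12.6 CPM per kb, Drd2 at 3.55 and Penk at 139. Whole cell libraries held them at 89.5, 0.480 and 48.4. Per kilobase Drd1 stood above Drd2 in both groups, while in CPM not divided by span every nuclear library held more of Drd2 than of Drd1. In nuclear libraries the order of Drd1 and Drd2 thus depends on the divisor. Per kilobase Penk stood above Pdyn and Tac1 in both groups, at 2.05 and 2.25 CPM per kb for the latter pair in nuclear and at 14.01 and 14.7 in whole cell libraries. The libraries labelled nuclear D1 thus held the receptor of their label, at a lower level, together with markers of D2-MSNs at a higher level than the whole cell libraries. The part of D2-MSN RNA in the other differences was not tested.

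**Figure D3:**
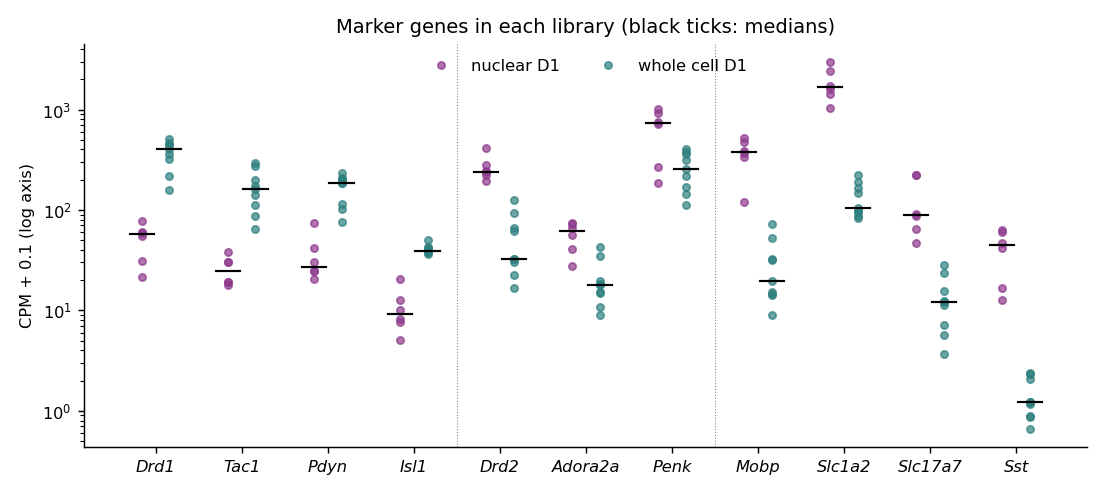
CPM (plus 0.1, log axis) of marker genes in each nuclear (6) and whole cell (9) D1 library (points; black ticks, medians). From left to right stand D1-MSN, D2-MSN and other cell type markers, divided by dotted lines. Drd1, Tac1, Pdyn and Isl1 are lower and Drd2, Mobp, Slc1a2, Slc17a7 and Sst higher in every nuclear library than in any whole cell library.

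Genes that both kinds of MSN use divided by gene. Of 24 such genes 22 were tested, 12 were higher in nuclear and 4 in whole cell RNA (median 0.55). Camk2a, the alpha subunit of CaM kinase II, was 3.33-fold higher in nuclear RNA (log2 1.73 ± 0.23, without overlap), Pde10a, the striatal phosphodiesterase, 1.94-fold (log2 0.96 ± 0.19, not called on scaling by library totals) and Foxp1, a transcription factor, 1.73-fold (log2 0.79 ± 0.16, and -0.04 scaled by library totals). Gad2, which makes GABA, was 2.57-fold (log2 -1.36 ± 0.22) and Arpp19, a phosphatase inhibitor, 2.77-fold higher in whole cell RNA (log2 -1.47 ± 0.34), calls that were lost without the FPKM filter. The neuropeptide genes Nts and Cartpt were lower in nuclear RNA, unlike Penk above and Sst and Npy below. Nts, the neurotensin precursor, lay between 0 and 6.66 CPM against 9.98 to 44.2 CPM (log2 -3.45 ± 0.51), and Cartpt, the CART precursor, between 0.843 and 4.44 CPM against 8.19 to 32.5 CPM (log2 -3.06 ± 0.40).

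Most tested markers of oligodendrocytes, astrocytes and other neurons were higher in the nuclear libraries. Of 14 oligodendrocyte markers 12 were tested and 11 were higher in nuclear RNA (median 2.41). Mobp, a protein of myelin, measured 477, 121, 336, 373, 520 and 388 CPM in nuclear libraries 1 to 6 and 8.85 to 73.1 CPM in whole cell libraries (12.8-fold, log2 3.68 ± 0.42, adjusted p = 4.3e-06). Mbp, a further myelin protein, rose by 2.15 ± 0.22, and for both the groups did not overlap. Of 12 astrocyte markers 10 were tested and 9 were higher in nuclear RNA (median 2.03). Slc1a2, the glial glutamate transporter, measured 2952, 1030, 1441, 1600, 2445 and 1715 CPM against 84.0 to 221 CPM (14.1-fold, log2 3.82 ± 0.27, adjusted p = 2.9e-08), and Aldoc rose by 4.24 ± 0.61. Gfap, of reactive astrocytes, had a log2 fold change of 0.24 ± 0.51 that did not pass. The apolipoprotein gene Apoe, expressed by astrocytes and microglia, was 68.7-fold higher (log2 6.10 ± 0.37), with 107 to 547 CPM against 3.24 to 7.42 CPM, and with its highest values in nuclear libraries 1, 5 and 6.

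All 4 markers of glutamatergic neurons tested, of 6, were higher in nuclear RNA (median 1.67), among them Slc17a7, the cortical vesicular glutamate transporter, with 46.6 to 223 CPM against 3.56 to 28.4 CPM (9.34-fold, log2 3.22 ± 0.42). Of 12 interneuron markers 4 were tested and 3 were higher in nuclear RNA: Sst, somatostatin, measured 12.5 to 62.7 CPM against 0.565 to 2.26 CPM (log2 4.95 ± 0.39), and Npy, neuropeptide Y, rose by 2.41 ± 0.46. For microglia and for endothelium and blood, 3 of 12 markers each were tested and 2 each were higher in nuclear RNA. Among the latter was the haemoglobin gene Hba-a1, with 0.491 to 13.97 CPM against at most 0.189 CPM (log2 6.31 ± 0.90, 4 whole cell counts in all), while Itm2a, of endothelium, stood at -0.82 ± 0.36 and did not pass. The median of endothelial and blood markers relative to all genes, 3.52 over the 3 genes tested, turned to -0.23 without the FPKM filter and to -0.27 with FPKM on summed exons.

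As sums over each whole list, oligodendrocyte markers lay between 964 and 2726 CPM in nuclear and between 251 and 661 CPM in whole cell libraries, astrocyte markers between 2369 and 4379 against 704 and 1214 CPM, and glutamatergic markers between 171 and 448 against 57.9 and 338 CPM. The glutamatergic sums overlapped between the groups. The sums of endothelial and blood markers (74.8 to 412 against 131 to 765 CPM) and of interneuron markers (167 to 437 against 125 to 729 CPM) also overlapped, the first with a lower median in nuclear libraries (153 against 256 CPM). No listed marker of these types was at 0 in all libraries of a group. The part of these cells in the other differences was not tested. Nuclei or RNA of other cells and a difference in the cells' own nuclei cannot be told apart in these bulk libraries.

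**Figure D4:**
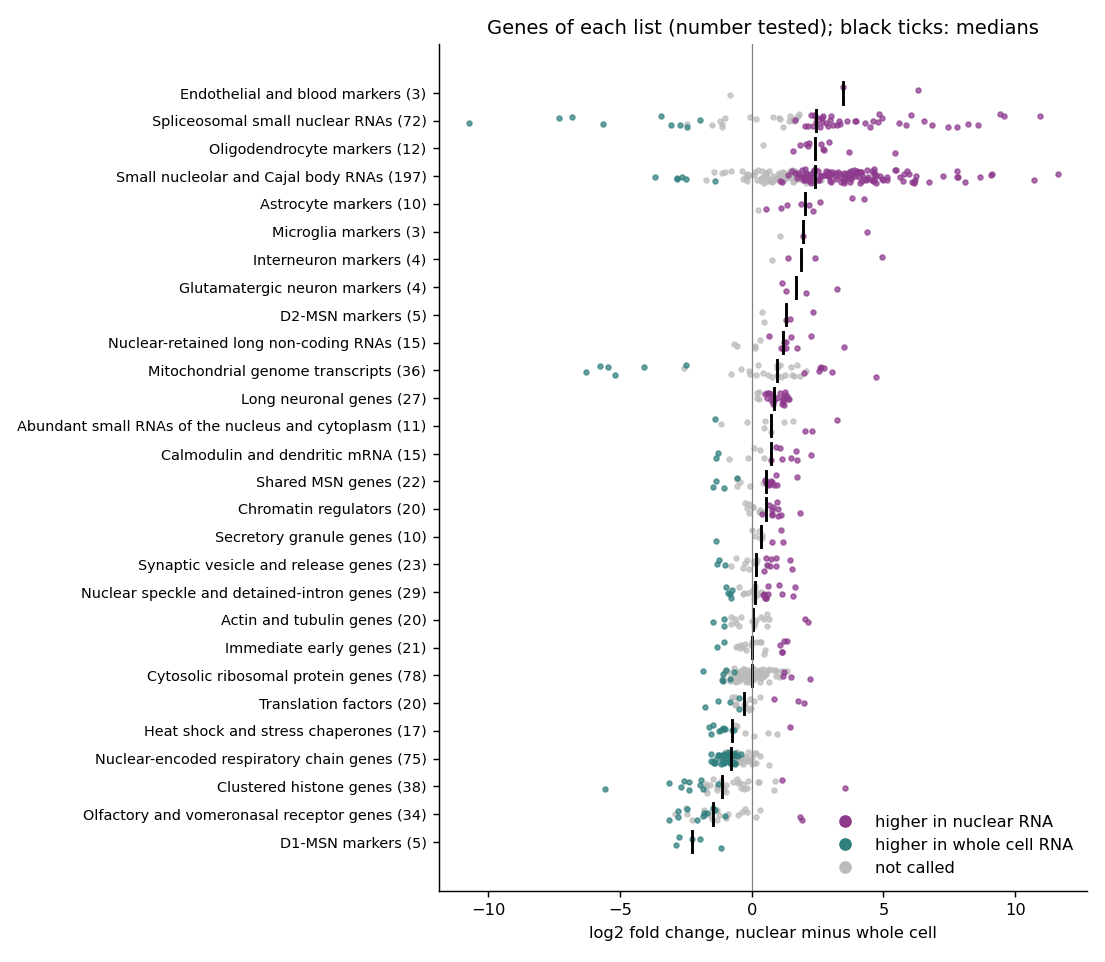
Log2 fold change, nuclear minus whole cell, of each tested gene (points) of each list, with the number of genes tested in brackets and the median as a black tick, ordered by median. Purple points were called higher in nuclear RNA and green points in whole cell RNA; markers of other cells and small RNAs sit at the top, and D1-MSN markers, with a median of -2.25, at the bottom.

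Synaptic genes split by gene as well. Of 17 genes of calmodulin signalling and dendritic messages 15 were tested, with 8 higher in nuclear and 2 in whole cell RNA (median 0.74). Shank1, a scaffold of the postsynaptic density, measured 609, 255, 240, 222, 430 and 363 CPM in nuclear libraries and 43.8 to 128 CPM in whole cell libraries (4.79-fold, log2 2.26 ± 0.26, adjusted p = 4.7e-06). Dlgap3, its partner, rose by 1.14 ± 0.16. Nrgn, neurogranin, rose by 1.70 ± 0.34, a call lost without nuclear libraries 1, 5 and 6 (0.63). Calm2, a calmodulin gene, was 2.57-fold higher in whole cell RNA (log2 -1.36 ± 0.43), a call lost without the FPKM filter. All 23 genes of synaptic vesicles and release were tested, with 9 higher in nuclear and 3 in whole cell RNA (median 0.16). Syn1, synapsin I, rose by 1.51 ± 0.17 and Sncb, beta-synuclein, by 1.44 ± 0.26. Syt4, a synaptotagmin, was 2.37-fold higher in whole cell RNA (log2 -1.24 ± 0.30), a call lost without the FPKM filter. The calls of Nrgn, Dlgap3, Syn1 and Sncb were lost on scaling by library totals.

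Genes of energy supply and protein folding were often higher in whole cell RNA. Of 82 nuclear-encoded respiratory chain genes 75 were tested, 43 were higher in whole cell RNA and none (0) in nuclear RNA, with a median of -0.77. Ndufs6, a subunit of complex I, measured 8.01 to 12.5 CPM in nuclear and 18.3 to 39.8 CPM in whole cell libraries without overlap (log2 -1.18 ± 0.20, adjusted p = 0.00022). Sdhd, of complex II, differed by -1.24 ± 0.22, Cox7b, of complex IV, by -1.39 ± 0.41 and Atp5a1, of the ATP synthase, by -1.47 ± 0.42, the last 3 calls being lost without the FPKM filter. Of 20 heat shock and stress chaperones 17 were tested, with 10 higher in whole cell and 1 in nuclear RNA (median -0.75). Hspa8, the constitutive HSC70, measured 932, 191, 132, 138, 701 and 660 CPM in nuclear libraries 1 to 6 and 489 to 2260 CPM in whole cell libraries (3.08-fold, log2 -1.62 ± 0.45). The high nuclear values lay in libraries 1, 5 and 6, without which it was -3.20. Hspa5, the chaperone BiP of the endoplasmic reticulum, differed by -1.55 ± 0.31 and Dnajb1, a partner of HSP70, by -1.46 ± 0.26. The calls of Hspa8, Hspa5 and Dnajb1 were lost without the FPKM filter.

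Genes of the protein-making machinery did not move as 1 group. Of 83 cytosolic ribosomal protein genes 78 were tested, 4 were higher in nuclear and 7 in whole cell RNA (5.13 and 8.97% of those tested), and the median was -0.00. Rps3 was 4.65-fold higher in nuclear RNA (log2 2.22 ± 0.34) and overlaps other genes, and Rpl21 2.80-fold (log2 1.49 ± 0.34, and 0.17 without nuclear libraries 1, 5 and 6). Among 22 translation factors 20 were tested, with 3 higher in nuclear and 5 in whole cell RNA (median -0.27). These are 15 and 25%, against 18.5 and 21.5% of all genes tested. The helicase genes Eif4a1 and Eif4a2, which encode close paralogs, differed in direction (log2 1.77 ± 0.29 and -1.29 ± 0.31), the second call being lost without the FPKM filter, and Eif1 was higher in nuclear RNA (1.99 ± 0.42, and 0.29 without nuclear libraries 1, 5 and 6). Eif4a1 overlaps 3 other annotated genes and Eif4a2 7, so their counts and those of the genes they overlap cannot be told apart. The calls of Rpl21, Eif4a1 and Eif1 were lost on scaling by library totals.

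Of the remaining lists, 20 actin and tubulin genes were all tested, with 2 higher in nuclear and 3 in whole cell RNA (10 and 15%, median 0.04), among them Tubb4a, a brain tubulin (2.02 ± 0.31), Tmsb4x, which binds actin monomers (-1.48 ± 0.44), and Stmn3, a stathmin (-1.06 ± 0.31). Of 11 secretory granule genes 10 were tested, with 3 and 1 calls (median 0.36). Cpe, carboxypeptidase E, rose by 1.11 ± 0.12 without overlap, and Scg2, secretogranin II, was higher in whole cell RNA (-1.36 ± 0.37). The calls of Tmsb4x, Stmn3 and Scg2 were lost without the FPKM filter. Of 69 clustered histone genes, whose replication-type messages lack a poly(A) tail, 38 were tested, with 2 higher in nuclear and 10 in whole cell RNA (median -1.13), and Hist3h2a was 3.61-fold higher in whole cell RNA without overlap (log2 -1.85 ± 0.31). Of 30 immediate early genes, which neuronal activity or dissociation can induce, 21 were tested, with 5 higher in nuclear and 2 in whole cell RNA (23.8 and 9.52%). Their median was 0.02, and over all genes tested the shares were 18.5 and 21.5%. Per1, a clock gene, rose by 1.07 ± 0.14 without overlap, Npas4, a factor induced by activity, by 1.14 ± 0.24 and Nr4a2, an orphan nuclear receptor, by 1.34 ± 0.42, and Gadd45b was higher in whole cell RNA (-1.33 ± 0.39, lost without the FPKM filter). Nr4a2 was not called without nuclear libraries 1, 5 and 6 (0.83), and the calls of Cpe, Per1, Npas4 and Nr4a2 were lost on scaling by library totals.

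Genes of the mitochondrial genome differed in direction by segment. Of its 37 genes 36 were tested, 7 were higher in nuclear and 6 in whole cell RNA, and the median was 0.96. Relative to all genes that median was 1.02, and it was -1.90 without nuclear libraries 1, 5 and 6 and -0.0069 without nuclear library 6. The ribosomal RNA mt-Rnr1 measured 42028, 2645, 2329, 1689, 26376 and 27037 CPM in nuclear libraries 1 to 6 and 127 to 3259 CPM in whole cell libraries (log2 4.70 ± 0.85, adjusted p = 0.00033). The 3 high nuclear libraries were those with most of the ribosomal RNA locus, and the highest whole cell value was in library 5. Without nuclear libraries 1, 5 and 6 the difference was 1.79 and not called, and without whole cell replicate 5 it was 5.70. The other ribosomal RNA, mt-Rnr2 (2.58 ± 0.72), and mt-Nd6, the subunit gene on the opposite strand (2.73 ± 0.76), were also higher in nuclear RNA, at 3.19 and 3.47 without whole cell replicate 5, and at -0.50 and -0.36, neither called, without nuclear libraries 1, 5 and 6. The call of mt-Rnr2 was also lost on scaling by library totals.

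The 4 protein genes that follow each other between positions 7013 and 9390 of the mitochondrial genome went the other way. mt-Co2, a subunit of cytochrome oxidase, measured 10.51, 2.11, 1.08, 1.74, 5.99 and 7.77 CPM in nuclear libraries 1 to 6 and 32.9 to 214 CPM in whole cell libraries (log2 -4.08 ± 0.58, adjusted p = 4.0e-05). mt-Atp6, a subunit of the ATP synthase, measured 8.41, 0.422, 0.245, 0, 4.99 and 7.21 CPM against 74.4 to 1046 CPM (77.8-fold, log2 -6.28 ± 0.86), mt-Atp8, which overlaps it, differed by -5.20 ± 0.71 and mt-Co3 by -5.46 ± 0.89. For all 4 genes the groups did not overlap. Leaving out nuclear replicate 1 gave -4.90, -6.72 and -7.61 for mt-Co2, mt-Atp8 and mt-Atp6, leaving out nuclear replicate 6 gave -6.96 for mt-Co3, and leaving out whole cell replicate 5 gave -5.65 for mt-Atp6. Without nuclear libraries 1, 5 and 6, mt-Co3 stood at -11.70, with 0, 0.0491 and 0 CPM in nuclear libraries 2, 3 and 4. These levels are under the floor of 3 counts, so -11.70 is not a measured fold. The smallest change of the 4 genes in this fit was -5.89, for mt-Co2. Directly before them, mt-Co1 measured 100 to 2527 CPM against 347 to 1825 CPM and did not differ by the test (log2 0.60 ± 0.60, adjusted p = 0.44, and -2.29 without nuclear libraries 1, 5 and 6), and next after them mt-Nd3 did not differ either (-0.80 ± 0.82, adjusted p = 0.46). The next gene, mt-Nd4l, was higher in whole cell RNA (-2.48 ± 0.90, adjusted p = 0.035). Nuclear copies of parts of the mitochondrial genome share sequence with these genes, and fragments that align to several places were left out, so values on these genes are uncertain.

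**Figure D5:**
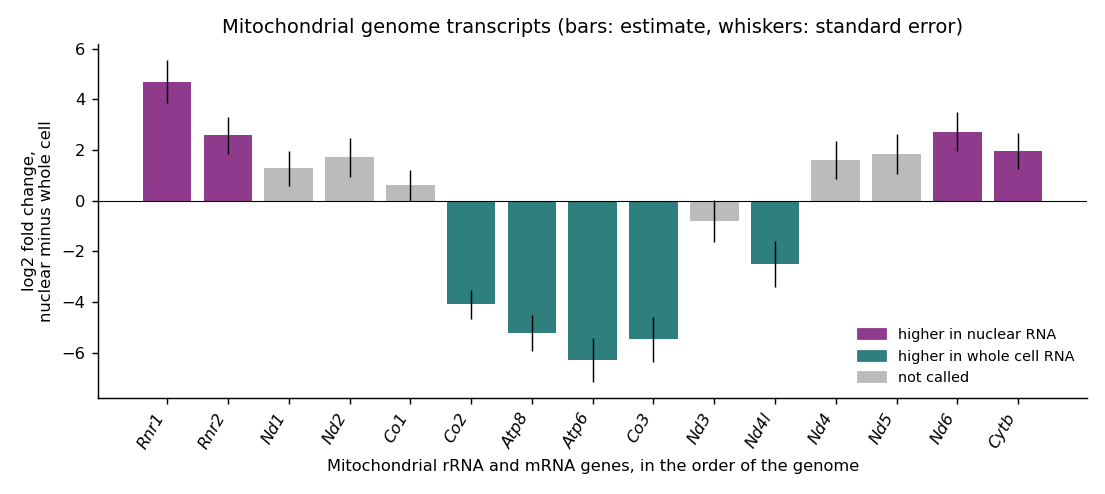
Log2 fold change, nuclear minus whole cell, of the mitochondrial rRNA and mRNA genes in their order on the genome (bars; whiskers, standard error), coloured by call. Co2, Atp8, Atp6 and Co3 reach -4.08 to -6.28 between Co1 at 0.60 and Nd3 at -0.80.

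The protein-coding genes with the largest nuclear excess moved with the ribosomal RNA locus. Il31ra, an interleukin receptor gene, measured 50688, 8891, 6351, 6652, 42406 and 47212 CPM in nuclear libraries 1 to 6 and 28.8 to 222 CPM in whole cell libraries (330-fold, log2 8.36 ± 0.67, adjusted p = 1.2e-07). Zc3h7a, which encodes a zinc finger protein, measured 52375, 12137, 7532, 6494, 29943 and 49715 CPM against 85.7 to 298.5 CPM (log2 7.65 ± 0.53). Cdk8, a kinase of the Mediator complex, measured 159085, 32004, 19402, 19306, 144393 and 176341 CPM against 1496 to 13634 CPM (log2 4.32 ± 0.58). In each of these genes nuclear libraries 1, 5 and 6, with 49.1 to 55.9% of counts on the ribosomal RNA locus, held the highest values and nuclear libraries 2, 3 and 4, with 16.4 to 26.5%, the lowest nuclear ones. Cmss1 (6.33 ± 0.52), Sspn, a sarcoglycan-associated protein (5.90 ± 0.52), and Jarid2, a partner of the Polycomb complex (5.24 ± 0.53), had the same order of libraries, as had the microRNA gene Mir6236 (3.74 ± 0.69).

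Without nuclear libraries 1, 5 and 6 the log2 fold changes were 6.52 for Il31ra, 6.08 for Zc3h7a, 4.56 for Cmss1, 4.56 for Sspn, 3.49 for Jarid2, 2.38 for Cdk8 and 1.73 for Mir6236, the last no longer called. Of the other genes named, Aldoc stood at 2.14, Apoe at 4.91, Sst at 4.32, Npy at 1.62, Tubb4a at 0.81, Sncb at 0.84, Snhg1 at 2.74, Snord21 at 4.23 and Rnu1a1 at 3.27 in this fit. In the same fit Mobp, Slc1a2, Drd1 and Drd2 moved by less than 1.5-fold. Whether these genes hold sequence like that of ribosomal RNA was not tested.

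In the opposite direction, the rule for named genes, which leaves out mt-Atp8 and mt-Co3 because they overlap mt-Atp6, gave mt-Atp6, mt-Co2, Nts, Cartpt, Drd1 and Tac1 and also 4 less studied protein-coding genes. Spata21, a gene known from testis, lay between 0.280 and 21.5 CPM in nuclear and between 42.9 and 228 CPM in whole cell libraries (9.25-fold, log2 -3.21 ± 0.61). Zfp979, a zinc finger gene, differed by -2.89 ± 0.61, Zcchc12, a further zinc finger gene, by -2.76 ± 0.34, and Rnf219, a RING finger gene, by -2.59 ± 0.37, each without overlap. Of genes that do not code for protein, Zim3 (-1.79 ± 0.22) and St8sia3os (-0.89 ± 0.13), both annotated as antisense, met the same rule, the second call being lost without the FPKM filter. Strand was not used in counting, so an antisense gene and its partner cannot be told apart.

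Processed pseudogenes, intronless copies of messenger RNAs, were more often higher in whole cell RNA. Of 1147 tested, 342 (29.8%) were higher in whole cell RNA, 11 of them without a count in any nuclear library, and 99 (8.63%) in nuclear RNA. Over all genes tested these shares were 21.5 and 18.5%, and over protein-coding genes without an intron 28.4 and 6.20%. The excess in whole cell RNA was thus not particular to pseudogenes. Eif4a-ps4 had 7 counts in all nuclear libraries together and measured 29.3 to 119 CPM in whole cell libraries (447-fold, log2 -8.80 ± 0.51). Eif4a1, whose name it shares in part and which overlaps other genes, was higher in nuclear RNA. Atp6v0c-ps2 differed by -5.32 ± 0.63 (-4.67 without nuclear replicate 3) and the gene it is named for, Atp6v0c, by 1.29 in the other direction. Of 72 pseudogenes with a tested namesake, 34 were higher in whole cell RNA, and the namesake was higher in whole cell RNA for 7 of these, not called for 24 and higher in nuclear RNA for 3. Reads of near-identical copies can be split between a gene and its pseudogene, so single pseudogene values are uncertain. Olfactory and vomeronasal receptor genes, used for the background, had 34 of 1429 members tested, with 11 higher in whole cell and 2 in nuclear RNA (median -1.47).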

How the data were processed

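Libraries were made with a stranded SMARTer kit after depletion of ribosomal RNA. The deposited values are raw counts: the authors aligned reads to GRCm38 (Ensembl 90) with HISAT2 2.0.5 and counted fragments with featureCounts over whole gene bodies, without strand, for every overlapping gene and leaving out fragments with several alignments. Of 49 columns, 34 were not used. Genes were annotated from GENCODE vM21 (52489 of 52636 matched).

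Genes had to exceed 1 fragment per 1000000 in 2 libraries and an FPKM of 1 in 1 library, and stay under 50000 in all, with FPKM taken over the gene span. They were compared with edgeR 4.0.16 (R 4.3.3, quasi-likelihood test, TMM, Benjamini-Hochberg). The SE is the log2 fold change divided by the root of F. Floors of 3 counts and counting intervals cover counting error only. Alternatives were DESeq2 1.42.0, other scalings and filters, background subtraction, a replicate block and leaving out each library, and 2 further subsets (the 9 libraries of lowest background, and all but the 3 nuclear libraries of highest ribosomal RNA share), background-subtracted shares, intronless genes and the classes of the ribosomal RNA locus and respiratory chain were added after seeing the data. Code was tested on simulated data.

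Members and lists were chosen with earlier results of these data known. Named genes were list members and, in each direction, up to 10 protein-coding and 5 other named genes of largest change without overlap, at a mean of at least 10 CPM. The pseudogenes, Atp6v0c, Gm23804 and Gm26232 were named after their values were seen. Some list members are not reported here.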

Additional observations from a re-analysis of the deposited data

Results flagged for a closer look

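Of 266 sets of values, each a named gene or RNA class in the libraries of 1 group, 30 had a highest library that stood far from the others. The cut-off flags about 1 in 20 only for normally spread, independent sets. These values are skewed and the sets share libraries, so the number expected by chance is not known. Of the 30, 16 lay in whole cell library 5.

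Whole cell library 5 held 3259 CPM of mt-Rnr1, 7799 of mt-Rnr2, 440 of mt-Nd6, 148 of mt-Atp8 and 1046 of mt-Atp6, the highest value of each gene among whole cell libraries. It also held the highest shares of mitochondrial rRNA (0.698%), mitochondrial mRNA (0.644%), mitochondrial tRNA (0.0542%), ribozymes (0.569%) and small nucleolar RNAs (0.0872%). Of other genes it held 5.63 CPM of Rnu1a1, 39.8 of Ndufs6, 13634 of Cdk8, 298.5 of Zc3h7a, 228 of Spata21 and 339 of Rnf219.

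In nuclear library 5, Snhg1 reached 284 CPM, Snord21 186 CPM and n-R5s115 83.8 CPM. In nuclear library 6, mt-Co3 reached 24.4 CPM, Atp6v0c-ps2 2.22 CPM and mitochondrial tRNA 0.0275% of counts. In nuclear library 2, Drd2 reached 416 CPM. Whole cell library 9, whose title and column name differ in cell type, held 1518 CPM of Rn7sk, 222 CPM of Il31ra and a microRNA gene share of 0.195%. Whole cell library 7 held 49.9 CPM of Isl1 and 0.137 CPM of n-R5s115, a single count. Whole cell library 6 held 100.2 CPM of Syn1 and whole cell library 3 held 375 CPM of St8sia3os.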

How the results depend on the processing

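Of the genes named, 103 were called and 51 of these kept their call under every alternative that tested them, and none lost it when a single library was left out, which gave 1979 to 2333 nuclear and 2285 to 2728 whole cell calls. DESeq2 called 2484 and 2820 genes, its size factors in edgeR 2321 and 2536, background subtraction 2335 and 2756, summing whole cell libraries 1 and 9 2091 and 2384, the 9 libraries of lowest background 1831 and 1999, and all but nuclear libraries 1, 5 and 6 2306 and 3265. Library totals gave 446 and 6269 calls, omitting the FPKM filter 1482 whole cell calls and FPKM on summed exons 1479. Library totals ended 30 of the named calls, omitting the FPKM filter 21, summed exons 18, leaving out nuclear libraries 1, 5 and 6 9, and the lowest-background libraries 1.

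Log2 fold changes changed sign under library totals for Gpr6 (-0.71), Sp9 (-0.49), Foxp1 (-0.043), Rn7sk (-0.019), Csmd3 (-0.58), Cntnap2 (-0.60), Dnmt3a (-0.017), mt-Co1 (-0.87) and Gfap (-0.51), and without nuclear libraries 1, 5 and 6 for Gpr6 (-0.11), mt-Rnr2 (-0.50), mt-Nd6 (-0.36) and mt-Co1 (-2.29). The median of the mitochondrial list relative to all genes, 1.02, was -1.90 without these 3 libraries and lay between -0.0069 without nuclear library 6 and 2.04 without whole cell library 5. That of endothelial and blood markers, 3.52 over 3 genes, was -0.23 without the FPKM filter and -0.27 with summed exons, which let more members in. With the 10 highest genes of each library out of both the class and the total, differences in share, in percentage points, were -1.88 for protein-coding genes, 0.102 for rRNA genes, 0.0935 for small nucleolar RNAs, 0.198 for mitochondrial mRNA, 0.0033 for ribosomal protein genes, 0.296 for lincRNA outside the ribosomal RNA locus, 0.0286 for sense intronic genes, -0.112 for the ribosomal RNA locus, 0.0064 for misc_RNA and 0.0102 for mitochondrial tRNA. The main genes of the ribosomal RNA locus were among those left out of nuclear libraries. The small values for this locus and for rRNA genes follow from that and are no check on them. Leaving out 1 library at a time gave 0.0195 to 0.0344 for small nucleolar RNAs, 0.375 to 0.642 for mitochondrial rRNA, -0.0621 to 0.0262 for mitochondrial mRNA, -0.0604 to 0.0752 for TEC genes and -0.0061 to 0.0033 for mitochondrial tRNA. The causes of the other changes were not tested.

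Groups shared replicate numbers 1 to 6, but same-numbered libraries did not deviate together (correlations -0.355 to 0.155). With the number as a replicate block over 12 libraries, 1603 genes were higher in nuclear and 2216 in whole cell RNA, the calls of Penk (0.97), mt-Rnr2 (1.43) and mt-Nd6 (1.87) were lost, Rn7sk was called (1.86) and mt-Co1 stood at -0.64. The exact test of 6 pairs cannot go below a p of 0.031, or an adjusted p of 0.055 here, so no class passed. The paired differences in share were -31.1 for protein-coding, 13.3 for rRNA, 0.0292 for snRNA, 0.469 for mitochondrial rRNA and -0.102 for ribosomal protein genes, and 8.42 for genes over 100 kb (exact p = 0.0625). In depth, 3 counts were worth up to 2.99 CPM in a nuclear library, and lower levels there rest on at most 2 counts.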
